A study of Mus musculus with 2 samples.

Results

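CTCF binding was mapped at 8 genes that mark blood cell lineages, out of 21755 protein-coding genes on chromosomes 1 to 19 and X. The genes were Spi1, a transcription factor of myeloid and B cells; Ptprc, the CD45 phosphatase of nearly all white blood cells; Cd79a and Cd79b, the signalling chains of the B cell receptor; Cd3e, a chain of the T cell receptor complex; Cd4 and Cd8a, the T cell coreceptors; and Csf1r, the growth factor receptor of macrophages. A CTCF summit, the position of a peak's maximum, was assigned to a gene when it lay in the gene body or within 20 kb of any of the gene's transcription start sites (TSSs) in GENCODE M21 on the mouse assembly mm10. By this rule 30 of the 73465 peaks in the optimal list were assigned, and no summit belonged to more than 1 of the genes. The optimal list is the deposited list thresholded on the irreproducible discovery rate, which scores how reproducibly a peak ranks between replicates.

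The chromatin came from whole intestine of newborn B6NCrl mice (postnatal day 0), ground to powder and pooled from several dissections, with the sex not recorded. There was 1 group with an antibody against CTCF, of 2 libraries that are numbered as biological replicates 1 and 2. The labels name the same donor and the same tissue sample for both, so the spread between them may be technical. No other tissue, age or genotype was measured, and no blood cells were isolated, so no difference between conditions was tested. CTCF peaks hold no RNA values, and the labelled tissue was not checked against marker genes. In a whole tissue a site bound weakly in every cell and a site bound strongly in a few cells cannot be told apart.

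CTCF grips a long DNA motif with its zinc fingers, and the motif has a direction. Cohesin that extrudes a chromatin loop is held best at motifs facing the loop, so motif pairs that point at each other often flank loops and insulated neighbourhoods. CTCF occupies many of the same sites in most cell types, and lineage genes are often switched on by enhancers within such neighbourhoods.

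In the optimal list CTCF lay around 7 of the 8 genes and seldom at their own starts, a contrast drawn after the data were seen. An optimal summit was found in the window of 7 of the 8 genes, against 82.3% of protein-coding genes under the same rule, a share near the background, and Cd8a had none. The median number of summits per gene was 4, against 3 over all coding genes (quartiles 1 and 6), and 5 of the 8 had 4 or more, against 47.1%. Only Ptprc had a summit within 1 kb of an annotated TSS of its own, whereas 45.7% of coding genes did, and that TSS is an internal one deep inside the gene. Within 2 kb the number was again 1 of 8 (52.8% of coding genes), within 5 kb it was 4 (63.9%) and within 10 kb it was 6 (73%). With TSSs of protein-coding transcripts alone the number was 0 of 8, against 42.3% of coding genes. The closest summit to any own TSS lay at a median of 5.67 kb for the 8 genes and 1.53 kb for all coding genes. These comparisons at own TSSs were added after the data were seen, for genes chosen with earlier results known. They describe the 8 genes and support nothing further.

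**Figure D1:**
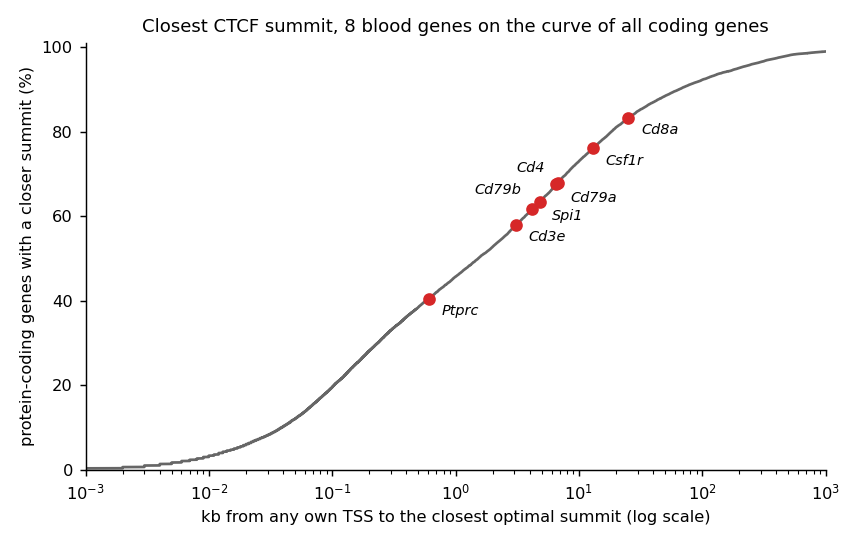
Curve: share of protein-coding genes (y axis, %) whose closest optimal CTCF summit to any own TSS is nearer than the distance on the x axis (kb, log scale); red points place the 8 blood lineage genes on it. Ptprc lies at 0.604 kb, Cd8a at 25.2 kb and the other 6 between 3.10 and 12.95 kb.

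Of the 30 summits 18 were nearer to a start of another coding gene than to one of the blood gene itself. These 18 included the Spi1 summit in exon 5 and the Csf1r summit in intron 15, which lie inside the blood genes. The other 12 (40%) were nearest to the blood gene's own TSS. Over all coding genes the own TSS was the nearest in 63.3% of 86848 pairs of a gene and a summit. In these pairs a summit can count for several genes, and a gene with many summits weighs more. The shares were not matched for gene length. In 4 genes (Spi1, Ptprc, Cd3e and Csf1r) a summit lay inside the gene body, against 59.8% of coding genes. These 4 bodies held 9 of the 30 summits. By position, 13 summits lay within 1 kb of some annotated TSS, 8 in introns, 5 between genes, 2 in exons of noncoding transcripts, 1 in coding sequence and 1 in an untranslated region. The shares of all optimal peaks in these classes were not computed, so whether these counts are usual for the list cannot be told.

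**Figure D2:**
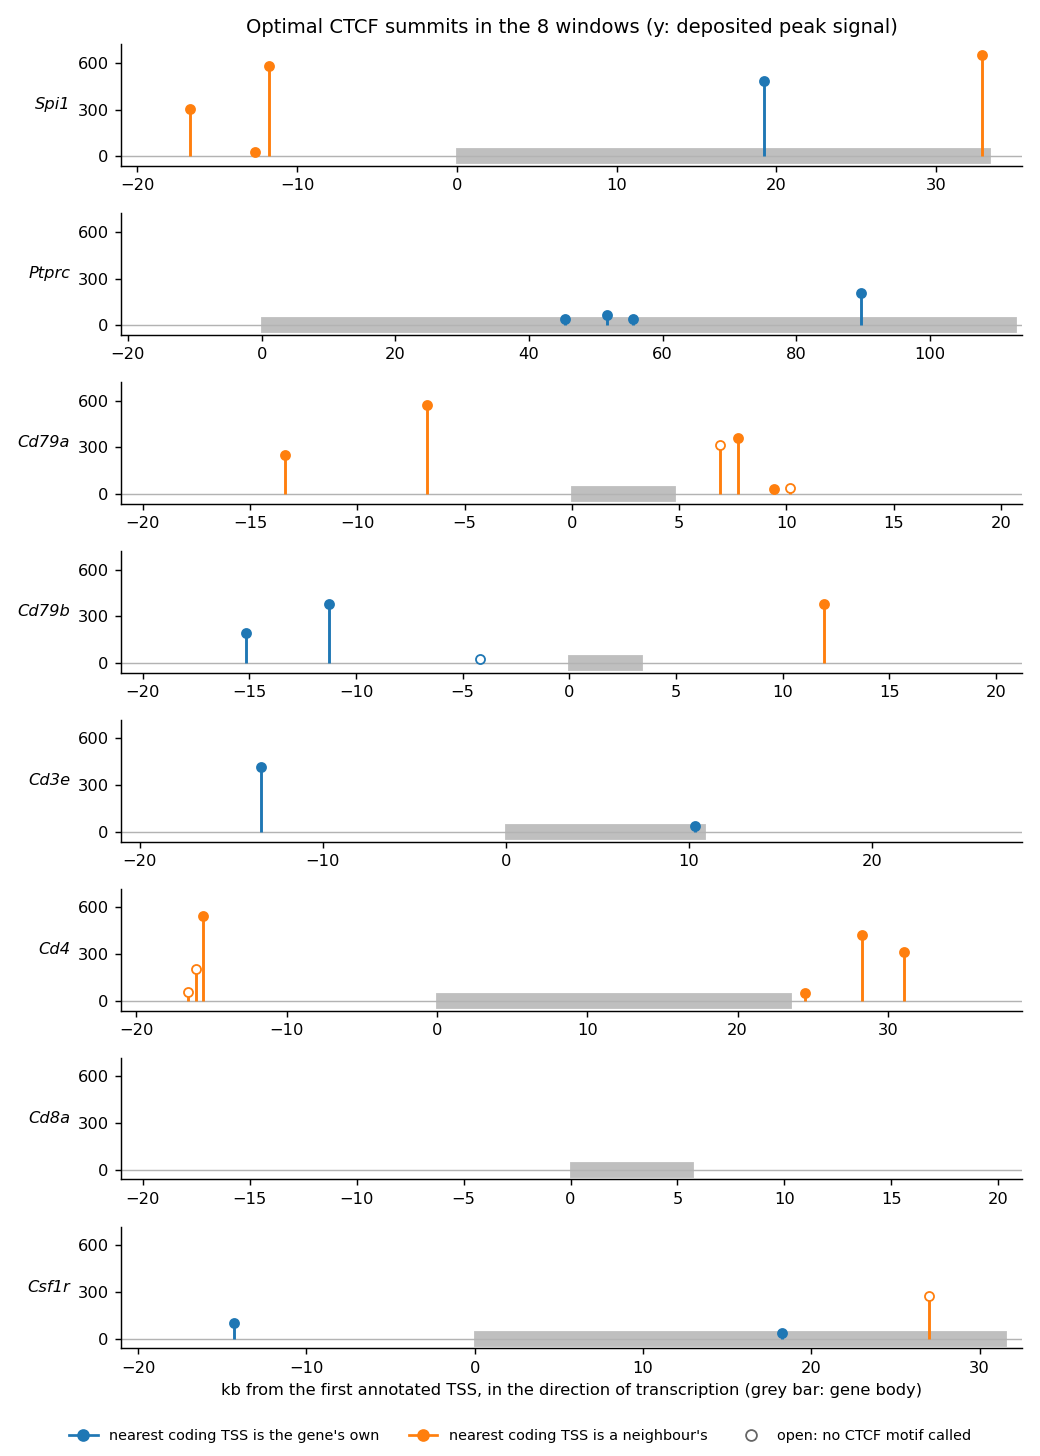
Each panel shows 1 gene's window; the x axis is the distance from its first annotated TSS in kb along transcription, the grey bar the gene body, and each stem an optimal summit with its deposited peak signal on the y axis. Stems are blue where the nearest coding TSS is the gene's own and orange where it is a neighbour's, and open circles mark summits without a called motif. Cd79a and Cd4 carry orange stems only, Ptprc blue stems only, and Cd8a none.

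The motif was searched with a 19-base CTCF matrix trained on peaks of chromosomes that hold none of the 8 genes, on both strands, with its centre within 100 bases of the summit. It was found under 24 of the 30 summits (80%). Of all 31041 optimal peaks on the same 7 chromosomes 71.0% held one (95% exact binomial interval 70.5 to 71.5, counting error only), and of windows 1 kb to either side 4.61%. The 30 summits had a median signal of 229, against 76.0 over the optimal list, so these shares were not matched for peak strength. Among the 17 summits with a signal over 200, 14 held the motif, as did 6 of the 8 with a signal under 50. The motif shares of all optimal peaks in these signal ranges were not computed. Whether the 30 summits differ from peaks of like strength therefore cannot be told. Summit and motif centre were 6 bases apart in the median case and at most 40. In the sequences printed for single genes, all from the mm10 reference, the matrix match is in capitals with 5 bases on either side in lower case, read 5' to 3' along the strand that carries the motif. The printed span covers capitals and lower case.

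Spi1 encodes PU.1, the factor whose dose steers progenitors between myeloid and lymphoid fates, and it held the strongest of the 30 peaks. The gene lies on the plus strand of chromosome 2 from 91082390 to 91115756, and its window held 5 summits. The strongest lay over coding exon 5, the last exon, at 91115222 (peak 91115006 to 91115438). Its signal was 647, rank 65 of 73465, with 317 in the replicate 1 list and 336 in the replicate 2 list. It ranked 90 and 58 in those lists, near the top of each. A second summit inside the gene, at 91101585 in intron 2, had a signal of 479.9 (230.5 in replicate 1, 250.5 in replicate 2) and lay 4.80 kb downstream of the nearest Spi1 TSS, an internal one. The remaining 3 summits lay 11.8 to 16.7 kb upstream at Slc39a13, which encodes a zinc transporter. The strongest of them was 0.189 kb from a Slc39a13 TSS with a signal of 582 (299 and 283), and the other 2 had signals of 303 (144 and 160) and 28.1 (18.8 and 9.01). The motifs under the 2 summits in the gene and under the strong upstream one are shown, since these 3 are the strong peaks around the gene. All 5 Spi1 summits held a motif, and these 2 intragenic motifs lie on different strands.
Spi1 exon 5, chr2:91115248-91115276, plus strand: atgacCTACCAGAAGATGGCGCGCgcgct
Spi1 intron 2, chr2:91101576-91101604, minus strand: gacctGAGCCACCAGGGGGAGCCCtcctc
Slc39a13 promoter, chr2:91070588-91070616, plus strand: agcagTGGCCACACGGGGGCGCGCacggc

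Of coding genes with a summit in their window, 0.575% had a stronger strongest summit than Spi1. Mybpc3, a myosin binding protein gene of heart muscle, had the coding TSS nearest to the exon 5 summit, at 2.92 kb. The number of summits in the Spi1 window rested on the list used. It was 8 without replicate 2, that is, among as many of the strongest replicate 1 peaks as the optimal list holds, and 8 in the pooled list taken to the same size.

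Ptprc encodes CD45, a receptor phosphatase made in several isoforms by including or skipping a block of variable exons near its start. All 4 of its summits lay inside the gene body, which runs on the minus strand of chromosome 1 from 138062861 to 138175708, and none lay near the first TSSs. The gene stood alone, with no other coding TSS in its window of 133 kb. The strongest summit, at 138086010 in intron 20, had a signal of 207 (95.3 and 111 in replicates 1 and 2). The other 3 formed a group between 45.4 and 55.6 kb from the first TSS. They had signals of 42.9 (15.2 and 28.5) in intron 2, 64.1 (31.0 and 33.5) in intron 3 and 42.5 (19.2 and 25.2) in exon 5, all below the list's median of 76.0. Intron and exon numbers refer to the transcript with the longest coding sequence, which has 33 exons.

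The exon 5 summit fell within a variable exon. This exon, from 138120020 to 138120166 (147 bases), is present in 2 of the 5 coding transcripts annotated across the summit and absent from 3. The nearest TSS, 0.604 kb away, starts an internal noncoding transcript. The summit at 138124079, 1495 bases before exon 4, also lay over an exon of a noncoding transcript, and 76.2% of the bases within 50 of it were masked as repeats in the reference. Its motif, with a score of 21.3 against a threshold of 10.2, was the best of the 4. The motifs in exon 5 (11.8) and intron 2 (13.7) scored lowest. Neither was called at the stricter threshold reached by 1% of flanking windows. All 4 motifs lay on the plus strand, opposite to the direction of transcription, and they are shown together for that reason.
Ptprc intron 2, chr1:138130315-138130343, plus strand: gcaatATTTCAGTAGATGGCACCAgagaa
Ptprc intron 3, chr1:138124035-138124063, plus strand: cttgaTCGCCAGAAGAGGGCACCAaatcc
Ptprc exon 5, chr1:138120095-138120123, plus strand: cagctCCTCCGGCAGAGGGCGTCTgcgag
Ptprc intron 20, chr1:138085993-138086021, plus strand: gaagaAGGCCACAAGGTGGAGGCAgagag

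The group of weak Ptprc summits rested on low signals. Among optimal peaks above the list's median signal the Ptprc window kept 1 summit, the one in intron 20. All 4 were in the conservative list, which is nearly as long as the optimal list (70556 and 73465 peaks).

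Cd79a and Cd79b encode the 2 chains that pair to signal for the B cell receptor, and both short genes were free of summits inside the body and flanked on either side. Cd79a, on the plus strand of chromosome 7 from 24897381 to 24902197, had 6 summits, none of them nearest to its own TSS. The strongest lay 6.74 kb upstream, between Cd79a and the ribosomal protein gene Rps19, with a signal of 573 (274 and 301), rank 384. Of coding genes with a summit 2.89% had a stronger one. Another lay at the Rps19 promoter with a signal of 252 (119 and 134). On the other side 4 summits fell within 1 kb of TSSs of Arhgef1, which encodes a guanine nucleotide exchange factor, with signals of 363 (190 and 172), 318 (151 and 172), 43.0 (18.4 and 25.7) and 35.3 (19.5 and 14.0). The motif was not called at 2 of these 4, those of signal 318 and 43.0.

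Cd79b, on the minus strand of chromosome 11 from 106311341 to 106314762, had 4 summits. A pair of like height enclosed it. The summit at 106302845, near the growth hormone gene Gh, had a signal of 382.4 (191 and 192), and the summit on the other side, in an intron of the muscle sodium channel gene Scn4a, had one of 381.9 (189 and 194). A further Scn4a intron held a summit of signal 191 (87.9 and 104). The weakest, in an untranslated region of Scn4a 4.202 kb upstream of Cd79b, had a signal of 25.2 (15.1 and 9.73), held no motif and was not in the conservative list.

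The motifs that bracket these 2 genes faced each other. For each gene the nearest motif-bearing summit outside the body was taken on each side. On the left (lower coordinates) of Cd79a and of Cd79b the motif lay on the plus strand and on the right on the minus strand, so that both pairs converged on the gene, 14.5 and 23.2 kb apart. Convergent pairs bracketed 2 of the 8 genes and 28.1% of coding genes, a share near the background. The Cd79b pair enclosed no TSS of another coding gene. A convergent pair of that kind bracketed 1 of the 8 genes and 9.09% of coding genes. With a span under 25 kb as well it was again 1 of 8, against 1.25%. Both of these criteria were set after the values were seen, so the shares describe Cd79b and support nothing. The Cd79a pair enclosed TSSs of Arhgef1. Printed are the 2 motifs of the Cd79a pair and the left motif of the Cd79b pair.
Cd79a left, chr7:24890620-24890648, plus strand: ctcttCGGCCACTAGGTGGCAGCTgctag
Cd79a right, chr7:24905128-24905156, minus strand: actacTGTCCGGCAGAGGGAGCATtttgc
Cd79b left, chr11:106302814-106302842, plus strand: aacacTGAGCACTAGAGGGCACTGtccac

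**Figure D3:**
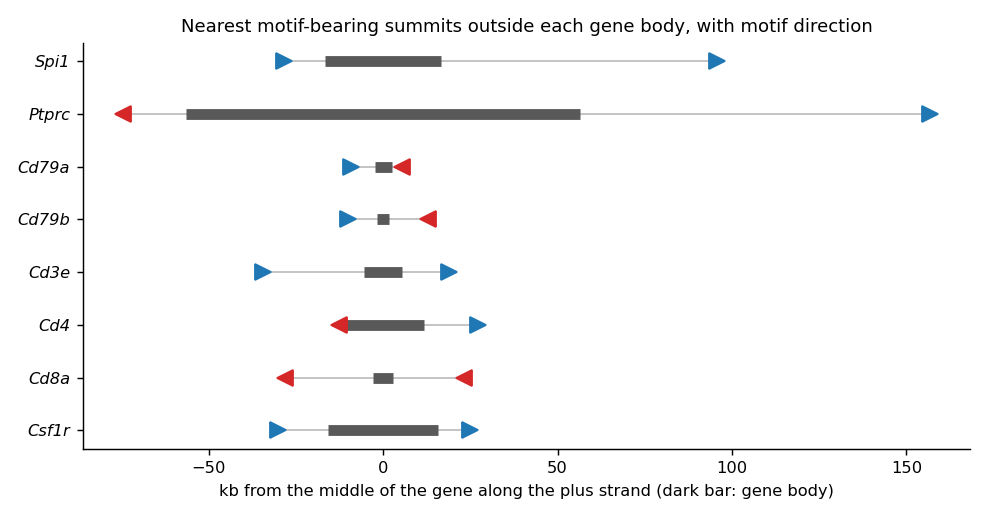
For each gene (dark bar, centred), triangles mark the nearest motif-bearing optimal summits outside the body, at their distance in kb along the plus strand, pointing right for a plus strand motif and left for a minus strand motif. The Cd79a and Cd79b triangles point at their genes, 14.5 and 23.2 kb apart, while the Ptprc and Cd4 triangles point away.

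The brackets of the other 6 genes were divergent for Ptprc (231 kb apart) and Cd4 (40.03 kb) and tandem for Spi1 (124 kb), Cd3e (53.4 kb), Cd8a (51.2 kb) and Csf1r (54.9 kb). Over the 8 genes the bracket had a median span of 52.3 kb, and over coding genes 82.8 kb. The convergent arrangement at Cd79a and Cd79b was found under all 7 alternatives tried, though not always with the same summits. With the stricter motif threshold, reached by 1% of flanking windows, the printed right motif of Cd79a (score 12.3) was not called. The Cd79a bracket then ended at the weak Arhgef1 summit of signal 35.3 (motif score 16.6). At the threshold reached by 1% of flanking windows Spi1 was convergent as well, while Cd4 was tandem and Csf1r divergent. In the conservative list Cd3e and Cd8a were convergent too, without replicate 1 Spi1 and Cd3e were, and without replicate 2 Cd3e and Cd8a were, so that the count was 4 in each of these.

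Cd3e, the epsilon chain that relays the T cell receptor's signal, had 2 summits. It lies on the minus strand of chromosome 9 from 44998740 to 45009627, beside its partner chains Cd3d and Cd3g. The stronger summit was intergenic, 13.4 kb upstream at 45022996, with a signal of 419 (184 and 236). It ranked 7646 in replicate 1 and 2883 in replicate 2, one of the wider gaps in rank of the set. The other, in exon 8 at the 3' end of the gene, had a signal of 41.6 (23.7 and 19.8). Both held a motif on the plus strand, opposite to the gene. In the windows of Cd3d and Cd3g the strongest summit was another, of signal 367, nearest to the ubiquitin ligase gene Ube4a.
Cd3e upstream, chr9:45022979-45023007, plus strand: tttaaGGTCCACCAGAGGGAGCTCtttac

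Cd4, the coreceptor of helper T cells, had 6 summits, all outside the gene body and all nearest to another gene. The gene lies on the minus strand of chromosome 6 from 124864692 to 124888221. Upstream, 3 summits stood close together, 15.5 to 16.5 kb from the Cd4 start and close to Lag3, which encodes a checkpoint receptor of activated T cells. Their signals were 544 (264 and 281), 206 (106 and 102) and 58.4 (26.1 and 32.2). The motif was called at the strongest of the 3 alone, where it scored 22.8, the highest of the 30 summits. Downstream, summits of signal 422 (205 and 218) and 311 (149.6 and 162) lay at Gpr162, an orphan receptor gene, and at the promoter of P3h3, a collagen hydroxylase gene. A weak one of 52.3 (17.3 and 36.8) lay 0.017 kb from a Gpr162 TSS. The downstream 3 counted for Cd4 through internal TSSs: with TSSs of protein-coding transcripts alone the window held 3 summits.
Cd4 upstream, chr6:124903742-124903770, plus strand: agcggTGACCACTAGGTGGCAGTGtgttg
Cd4 downstream at Gpr162, chr6:124859904-124859932, plus strand: agcttAGTCCAGCAGGGGGCACCCcaggg

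Cd8a, the coreceptor of cytotoxic T cells, stood apart from Cd4 in these lists. Its window on chromosome 6, from 71353427 to 71393553, held no optimal and no conservative summit, 3 peaks of the replicate 1 list and 4 of the replicate 2 list. Only 1 of them was matched between the replicates. It lay about 5.10 kb downstream of the TSS with signals of 3.92 (rank 163694 of 300000) and 8.86 (rank 83204). The closest optimal summits were 25.2 kb to the left, with a signal of 15.4, and 20.2 kb beyond the right end of the gene, with a signal of 257. Cd8b1, which encodes the partner chain and lies nearby, had no optimal summit in its window either. With a window of 50 kb Cd8a had 3 summits. The lists give no read depth, so whether a site weaker than these was missed cannot be told from them.

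Csf1r, the receptor through which macrophages receive their survival signal, had 3 summits. The strongest, in intron 15 of the 22-exon transcript, had a signal of 276 (132 and 145) and no called motif, with a best score of 9.37 against the threshold of 10.2. A summit in intron 10 had a signal of 40.2 (17.6 and 22.1), and one 14.3 kb upstream had a signal of 105 (52.2 and 51.8). Both of these held a motif. The intron 15 summit lay nearest to a TSS of Hmgxb3, at 9.86 kb.

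The order of the strongest summits was Spi1 (647), Cd79a (573), Cd4 (544), Cd3e (419), Cd79b (382), Csf1r (276) and Ptprc (207), with a median of 419. Over coding genes with a summit the median was 328. Spi1, Cd79a and Cd4 had a summit above 500, against 9.23% of coding genes. The limit of 500 was not planned and falls in the gap between 544 and 419, so this share supports nothing. The strongest summits of Spi1, Cd79a and Cd4 were nearest to a TSS of another coding gene, namely Mybpc3, Rps19 and Lag3. The Spi1 window held another summit above 500, of signal 582 and nearest to Slc39a13. Among neighbours in this order, Cd3e had the lower value of the pair with Cd79b in replicate 1 (184 and 191) and the higher in replicate 2 (236 and 192), so these 2 were not ordered alike by the replicates. The other neighbouring genes kept their order in both lists.

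The replicates ranked the 30 summits alike. Each summit had a peak in both replicate lists with the summit at most 36 bases away. Optimal peaks were selected for being reproducible, so this match was largely built in. The shares of all optimal peaks matched in this way, or with ranks within 1.5 times, were not computed. Spearman's rank correlation between the replicates was 0.952 across the 30 summits, which share the 2 libraries and were selected in part for ranking alike. In 25 of 30 the ranks differed by less than 1.5 times, and the widest difference was 2.82 times, at the Slc39a13 promoter summit of signal 582 (ranks 194 and 547). The conservative list held 28 of the 30, all but the weakest summits at Spi1 and at Cd79b. In replicate 2 these 2 ranked 82161 and 78420, past the 73465 peaks of the optimal list, so that they are not among the strongest replicate 2 peaks up to that number.

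**Figure D4:**
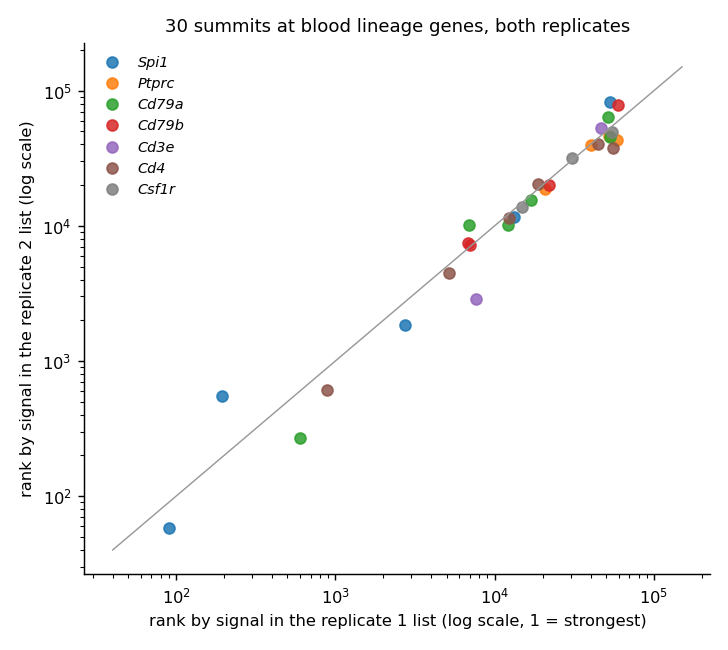
Rank of each of the 30 summits by peak signal in the replicate 1 list (x axis) and the replicate 2 list (y axis), both on log scales with rank 1 the strongest, coloured by gene; the line marks equal ranks. Most points lie near the line, from the Spi1 exon 5 summit at ranks 90 and 58 to the weak summits near the upper right.

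A further 22 summits in the 8 windows were matched between the replicate lists within 100 bases but had no optimal summit within 200 bases. The best placed lay in Spi1, 13.9 kb downstream of a TSS, with signals of 15.5 and 16.8 and ranks of 58481 and 57354. Spi1 and Cd79b had 5 each and Cd8a 1. At the edge of the rule, the nearest summit left out was 1.10 kb beyond the Spi1 window with a signal of 277, and a summit of signal 511 lay 2.82 kb beyond the Cd4 window. The summit taken in that lay closest to a window edge was the Spi1 exon 5 summit, 1.56 kb inside. It lies in the gene body and so is assigned whatever the window size.

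RefSeq promoter sequences (GRCm38.p6, 250 bases before to 50 after the start) were matched for Ptprc, Cd79a, Cd3e and Cd8a. None of the 4 held the CTCF matrix at the threshold, which 10.1% of 32619 promoters did. Their observed to expected CpG ratios were 0.173, 0.314, 0.333 and 0.198, all below the median of 0.387 over all promoters.

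Other genes of the same lineages were looked up in 4 lists of 18 genes each, taken from textbook roles. An optimal summit lay in the window of 17 B lineage genes, 16 T lineage genes, 16 myeloid genes and 17 genes of leukocytes in general, 66 of 72 (91.7%) against 82.3% of coding genes. Within 1 kb of an own TSS 29 of the 72 (40.3%) had a summit, against 45.7%. The lists differed: 7 B lineage (38.9%), 6 T lineage (33.3%), 6 myeloid (33.3%) and 10 general leukocyte genes (55.6%). Neighbouring genes such as Cd3d and Cd3g can share a summit, so the 72 genes are not separate observations. The strongest summits in the B lineage windows were those of Blk, a kinase below the B cell receptor (529.6), and of Rag1, the recombinase (494). The Rag1 window's summit lay at -15.98 kb from its TSS (negative values are upstream) and nearest to a start of Traf6. Pou2af1, a B cell coactivator, had none. In the T lineage windows they were those of Bcl11b, a factor of T cell commitment (587), and of Cd5 (563), with none for Cd8b1. In the myeloid list the Cd68 window, of a lysosomal protein of macrophages, held a summit of signal 485, at -16.8 kb and nearest to Senp3, and Adgre1, the F4/80 antigen, had none. The general list was led by the windows of Runx1, a master factor of blood formation (527), and of Lyl1 (506, at 7.90 kb and nearest to Nfix), and Cd53 had none.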

How the data were processed

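CTCF ChIP-seq peak lists on mm10 were used for 2 replicates in 1 group, per the labels. Per the deposited descriptions, each replicate list (300000 peaks) came from its alignments and a further file of unstated role, the pooled list from both, and the optimal (73465 peaks) and conservative (70556) lists from these. For the aligner, peak caller, versions and threshold: not given in the sources used here. The peak signal is the value the authors deposited, normalization not stated, and serves here to order peaks inside 1 list. Read depth is unknown. The summit is the deposited start plus offset. No peak ran past a chromosome end of the reference.

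The 8 genes and the 4 lists were chosen with earlier results of these data known. No test was made. The 19-base matrix was trained on the 5000 strongest peaks of 12 chromosomes in 6 rounds with a pseudocount of 1. The threshold was the score that 5% of their flanking windows reached. Scripts were tested on simulated data. Named were the 8 genes, coding genes with the TSS nearest to a summit, and from each list the top 2 by strongest summit plus the alphabetically first gene lacking one; Cd3d, Cd3g, Ube4a, Scn4a, Traf6, Senp3 and Nfix fall outside that rule and were added after their values were seen. A gene of 1 list and 1 motif sequence are not reported here. Alternatives were other windows, TSSs, lists, replicates and motif settings. The tools were matplotlib 3.10.9, numba 0.67.0, scipy 1.17.1, numpy 2.4.6 and Python 3.11.15.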

Additional observations from a re-analysis of the deposited data

How the results depend on the processing

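Of 99 values recomputed for the main results under an alternative, 82 stayed within 1.5 times the reported one (for the median signal, within the spread between replicates). With the gene body alone 4 of the 8 genes had a summit, and 9 summits were assigned. Of 18 genes per list, 11 B lineage, 10 T lineage, 9 myeloid and 14 general leukocyte genes were then bound. The share of coding genes under that rule was 59.8%. A window of 10 kb gave 15 summits with a median strongest signal of 207, and one of 50 kb gave 66 summits with a median of 489. Optimal peaks above the median signal gave 19 summits. A motif threshold reached by 1% of flanking windows left 14 summits with a motif. The count within 1 kb of an own TSS and its alternatives were chosen after seeing the data. With TSSs of protein-coding transcripts 0 genes had a summit within 1 kb of an own TSS. The conservative list gave 4 convergent brackets. Leaving out a replicate gave 4 convergent brackets in either case, and median strongest signals of 191 to 236, which are on the scale of a single replicate's list. No paired analysis was possible because there is 1 group. Of 80 counts for single genes, 60 stayed within 1.5 times. Depth is unknown, so a missing summit, as at Cd8a, is not evidence that CTCF was absent.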
